A study of Mus musculus with 2 samples.

Results

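The fibroblast growth factor (FGF) ligands Fgf1, Fgf2, Fgf7, Fgf10 and Fgf18 and the receptors Fgfr1, Fgfr2, Fgfr3 and Fgfrl1 were examined in costal-cartilage-derived stem cells (CDSCs) before and after culture. These 9 genes, of 21849 in the files, were taken by symbol. Fgf10 was chosen on its higher level after culture in these same libraries and Fgfr3 for its role in cartilage, so differences between the libraries are given as a description and support no choice of gene.

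CDSCs were isolated from rib cartilage of C57BL/6J mice, either CD45.1 or ZsGreen, during the first week of life, by type II collagenase digestion and a sort for CD45-CD51+ cells. The primary library held sorted cells, and the cultured library held cells grown in dishes in minimum essential medium with serum to passages 2 to 3. No added FGF is named among the ingredients of that medium. Each group was 1 library of single cells. The study's methods name a 10x Genomics 3' kit and also the MobiDrop platform. The number of animals behind each library was not given in the sources used here. Culture, animals, preparation and sequencing run cannot be told apart.

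FGF ligands bind receptor tyrosine kinases together with heparan sulfate, a sugar chain on cell surface proteins, and signal through adaptor proteins to the MAP kinases. Fgf7 and Fgf10 are close relatives, made by mesenchymal cells, that act mainly on a splice form of Fgfr2 found in epithelia. In growing cartilage, Fgf18 is made largely around the cartilage and in joints, Fgfr3 restrains the division of chondrocytes, and Fgfr1 is the receptor of late, enlarged chondrocytes. Fgfrl1 binds FGFs but has no kinase domain. The 3' UMI counts used here do not tell splice forms of a receptor apart.

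The primary library had 11746 cells with a median of 10026.5 UMIs (unique molecules counted), and the cultured library had 5338 cells with a median of 56864.5 UMIs. The cell filter left out 150 primary and 5460 cultured barcodes, and 32 barcodes occurred in both libraries. The tissue label reads bone marrow, whereas 13 of 15 chondrocyte markers were at 1000 CPM (counts scaled to a library total of 1000000 UMIs) or more in the primary library and none of them in the cultured library, where all 15 were lower. Their summed level was 101062 CPM before and 1091 CPM after culture. Of the sorting markers, Itgav, which encodes CD51, was at 92.5 and 109 CPM, and Ptprc, which encodes CD45, was at 0.620 and 0.345 CPM. In the primary library 11458 cells, or 97.5% (exact Clopper-Pearson interval 97.3 to 97.8), lay in clusters of chondrocyte-like cells, and the other 288 formed 1 mixed cluster led by Col1a1 and Postn. In the cultured library, clusters 3, 8 and 9, of 879, 54 and 26 cells, had Lars2 among their 10 leading genes, and cells in clusters 3 and 9 had medians of 1291 and 1239.5 UMIs. Levels by cluster, shares of cells and pairs of genes in the cultured library are given with and without these clusters, and the log2 ratios of the library levels kept their sign for all 9 members without them. Primary cluster 6, of 1220 cells with a median of 17881.5 UMIs, also had Lars2 among its leading genes and was kept throughout.

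Sequences before the start of transcription are shown for the genes that stood farthest apart between the libraries, the ligands Fgf10 and Fgf7 and the receptor Fgfr3. They are RefSeq promoter sequences of build GRCm38.p6, on the strand of the gene, and hold no annotated exon base of that gene. Exons of other genes were not checked. The GENCODE M21 entry of Fgf10 also has an earlier start, so its window lies within that longer span. Those of Fgf10 (chr13:118714449-118714698, plus strand) and Fgf7 (chr2:126034408-126034657, plus strand) hold 250 bases, and that of Fgfr3 (chr5:33721474-33721673, plus strand) holds 200. Capitals mark GC boxes, GGGCGG read on either strand.
Fgf10: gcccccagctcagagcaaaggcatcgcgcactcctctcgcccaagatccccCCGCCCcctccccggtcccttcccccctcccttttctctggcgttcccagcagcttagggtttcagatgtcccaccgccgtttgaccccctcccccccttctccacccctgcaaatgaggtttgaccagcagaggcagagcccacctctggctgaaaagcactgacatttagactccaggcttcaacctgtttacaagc
Fgf7: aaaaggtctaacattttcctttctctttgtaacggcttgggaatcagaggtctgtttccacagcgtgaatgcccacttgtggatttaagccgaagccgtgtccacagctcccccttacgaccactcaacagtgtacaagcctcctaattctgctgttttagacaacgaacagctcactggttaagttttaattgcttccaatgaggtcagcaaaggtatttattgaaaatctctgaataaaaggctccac
Fgfr3: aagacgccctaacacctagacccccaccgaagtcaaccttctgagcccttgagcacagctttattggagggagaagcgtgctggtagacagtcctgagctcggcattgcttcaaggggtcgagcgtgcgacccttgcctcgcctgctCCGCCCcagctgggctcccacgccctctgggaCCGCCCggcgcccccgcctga

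RefSeq promoter entries were read for 7 of the 9 members. Entries on chromosome 18, where Fgf1 lies, were not read, and none was at hand for Fgfr1. In the 250 bases before the start, Fgf10 held 1 GC box and 8 CG dinucleotides, Fgf7 held 0 GC boxes and 6 CG dinucleotides, and Fgfr3 held 3 GC boxes, of which the 200 bases shown hold 2, and 19 CG dinucleotides at its first listed start. Across 32817 promoters, 32.7% held a GC box and the median was 6 CG dinucleotides. The letters of a SOX motif (AACAATG, in 3.29% of promoters), an AP-1 motif (TGANTCA, 6.75%), a TEAD motif (GGAATG, 12.6%) and a TATA box (TATAAA, 12.4%), searched on both strands, did not occur in these windows of Fgf10, Fgf7 or Fgfr3. A match is a run of letters and not a binding site.

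Fgf10, the ligand that drives outgrowth of limb buds and lungs, was nearly absent before culture. The gene (chr13:118669791-118792115 in GENCODE M21, build GRCm38) had 17 UMIs in 12 of the primary cells, 0.124 CPM (exact Poisson interval 0.0722 to 0.198). In the cultured library it had 38201 UMIs, 116 CPM (115 to 117). The cultured level was 934-fold higher, a log2 ratio of 9.87 (exact conditional interval 9.19 to 10.65). All intervals cover counting error only, and with 1 library a group no test of the difference was possible.

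Fgf7, also named keratinocyte growth factor (chr2:126034658-126091185), had the same direction. It had 115 UMIs in 97 primary cells, 0.839 CPM (0.692 to 1.01), and 111259 UMIs in the cultured library, 337 CPM (335 to 339). That made it 402-fold higher after culture, a log2 ratio of 8.65 (8.39 to 8.93). Both transcripts were therefore detected before culture only in rare cells, and both were abundant afterwards.

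The clusters that held these rare primary UMIs were also counted. The mixed cluster led by Col1a1 and Postn made up 2.45% of the primary cells and held 5 of the 17 Fgf10 UMIs and 19 of the 115 Fgf7 UMIs. When this cluster was divided further, a choice made after its values were seen, 4 of those Fgf10 UMIs came from 2 cells of a group of 34 led by Hmcn1, Lgr5 and Chodl, which had too few listed markers to be named. Fgf7 was at 37.2 CPM in 27 fibroblast-like cells of that cluster, from 6 UMIs that lay in 2 cells. None of its 26 cells led by Fabp4 and the mast cell genes Cma1 and Mcpt4 had a UMI of Fgf7 or Fgf10. With 293069 UMIs in these cells, the upper limit for either gene was 12.6 CPM, above its library level. No difference is read from that absence. Endothelial markers, among them Pecam1, Cdh5 and Flt1, were also raised in this group, which was left unnamed. With chondrocyte-like cells alone as the primary side, the log2 ratio was 10.34 for Fgf10 and 8.88 for Fgf7.

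Fgf2, basic FGF (chr3:37348346-37410108), which is a common supplement for growing mesenchymal cells, was at 58.2 CPM before and 70.5 CPM after culture. The log2 ratio was 0.28 (0.24 to 0.31), below the median of 0.37 over the 9115 genes that reached 10 CPM in 1 or both libraries. Nudt6 and Fgf2os overlap it on the opposite strand and Gm43439 on the same strand, and reads shared with the latter cannot be told apart. Fgf1, acidic FGF (chr18:38838673-38929472), was low in both libraries, at 2.35 CPM from 322 UMIs and 4.41 CPM from 1457 UMIs, a log2 ratio of 0.91 (0.74 to 1.09). Without the cultured clusters led by Lars2 the log2 ratio was 0.86.

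Fgf18, the ligand tied to cartilage growth (chr11:33117430-33147400), was at 13.8 CPM before and 10.8 CPM after culture. The log2 ratio was -0.36 (-0.44 to -0.28). The ligand best known from cartilage was thus 1.29-fold lower after culture, less than any of the 3 receptors described as lower next.

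The receptors stood apart in another way. Fgfr3 (chr5:33721674-33737068), whose activating mutations cause dwarfism, had 20962 UMIs in the primary library, 153 CPM, and 841 UMIs in the cultured library, 2.55 CPM. Its level after culture was 60.0-fold lower, a log2 ratio of -5.91 (-6.01 to -5.81). Fgfrl1 (chr5:108692382-108706924), the receptor without a kinase, was at 176 CPM before and 30.6 CPM after culture, 5.75-fold lower, with a log2 ratio of -2.52 (-2.56 to -2.49).

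Fgfr1 (chr8:25513654-25575718), a receptor found widely in mesenchyme, was at 386 CPM before and 122 CPM after culture, 3.17-fold lower, a log2 ratio of -1.67 (-1.68 to -1.65). Fgfr2, in contrast, was at 242 CPM before and 236 CPM after culture, with a log2 ratio of -0.04 (-0.06 to -0.02). RefSeq places Fgfr2 at chr7:130162451-130266808, and the GENCODE M21 entry runs far past that end over many other genes, so UMIs of neighbours counted as Fgfr2 could not be told apart here.

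**Figure D1:**
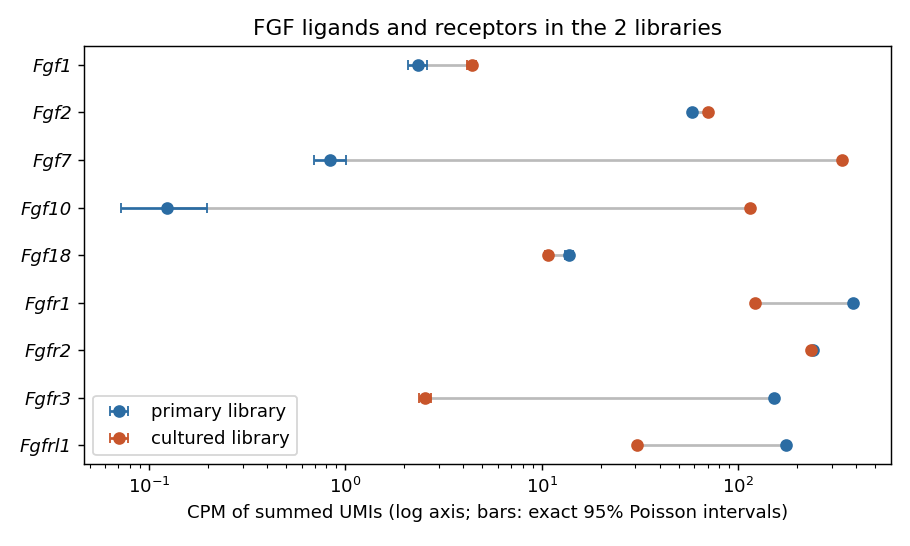
Level of each member in the primary (blue) and cultured (orange) library, as CPM of summed UMIs on a log axis, with exact Poisson intervals as bars. Fgf7 and Fgf10 lie far to the right in the cultured library, Fgfr3, Fgfrl1 and Fgfr1 lie to the left, and the points of Fgfr2 nearly coincide at 242 and 236 CPM.

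Of the 9 members, 8 reached 10 CPM in either library. Fgf7 and Fgf10 were at least 4-fold higher in the cultured library, as were 10.6% of the 9115 genes that did so. Fgfr3 and Fgfrl1 were lower by 4-fold or more, a level shared by 5.73% of these genes. The members were picked with this contrast known, so these counts are not read against the background. Scaling by TMM factors lowered the median log2 ratio of all genes from 0.37 to 0.16 and the share of higher genes among those apart from 64.9% to 56.5%, and it left the direction of all 9 members as it was, with Fgf2 at 0.08 and Fgfr2 at -0.23.

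Set against the other members of its family, each receptor's share of the receptor UMIs describes how the libraries differed. The 4 receptors together were at 957 CPM before and 391 CPM after culture. Fgfr2 made up 25.3% of these UMIs before and 60.4% after culture, Fgfr1 40.4% and 31.2%, Fgfrl1 18.4% and 7.83%, and Fgfr3 16.0% and 0.652%. The higher share of Fgfr2 came with a level that was nearly the same and with lower levels of the other receptors.

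The 5 ligands together were at 75.3 CPM before and 538 CPM after culture. Fgf2 made up 77.2% of the ligand UMIs before and 13.1% after culture, and Fgf18 18.4% and 2.00%. Fgf7 made up 1.11% before and 62.6% after, and Fgf10 0.165% and 21.5%. Such shares compare 1 gene between libraries, and they are no measure of 1 gene against another, since capture was not calibrated between genes.

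The share of cells with a UMI depends on depth, so cells were thinned to 5000 UMIs each, without 787 primary and 795 cultured cells that lay below that number. Fgf7 was found in 0.411% of primary and 67.3% of cultured cells (0.826% and 86.6% without thinning). Fgf10 was found in 7 primary cells, 0.0639% (0.0257 to 0.132), and in 28.8% of cultured cells (0.102% and 61.1% without thinning). Cells with at least 3 UMIs made up 25.9% of the cultured cells for Fgf7 and 5.68% for Fgf10. At 2000 UMIs per cell the cultured shares with a UMI were 42.9% and 16.6%. Without the Lars2-led clusters the shares at 5000 UMIs were 68.5% and 28.7%. A share counts droplets with a UMI, and the background in them is described further on.

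Fgfr3 was found in 49.3% of primary and 1.63% of cultured cells (70.3% and 10.5% without thinning). Fgfrl1 was found in 55.7% and 14.4% (76.6% and 63.5% without thinning). For Fgfr1 the shares were 79.4% and 44.0% (91.9% and 83.1% without thinning), and cells with at least 3 UMIs made up 31.2% and 3.87%. Fgfr2 was found in 66.1% and 62.5% (85.0% and 85.2% without thinning). The shares of Fgfr2 were 37.3% and 37.4% at 2000 UMIs, so their order turned with the depth and no difference is read from them. For Fgfr1, Fgfr3 and Fgfrl1 the primary share was the higher under all 5 other settings. Without the Lars2-led clusters the cultured shares were 44.2% for Fgfr1, 63.5% for Fgfr2, 1.36% for Fgfr3 and 14.6% for Fgfrl1.

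Fgf2 was found in 19.6% of primary and 24.5% of cultured cells at equal depth (33.3% and 65.2% without thinning), and Fgf1 in 1.06% and 2.71% (2.53% and 17.1%). Fgf18 was found in 5.65% and 4.93% (9.94% and 28.6% without thinning). At 10000 UMIs per cell the Fgf18 shares were 7.30% and 8.68%, the reverse of the order of its CPM, so no difference is read from them. Without the Lars2-led clusters the cultured shares at 5000 UMIs were 24.5% for Fgf2, 2.35% for Fgf1 and 5.10% for Fgf18.

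**Figure D2:**
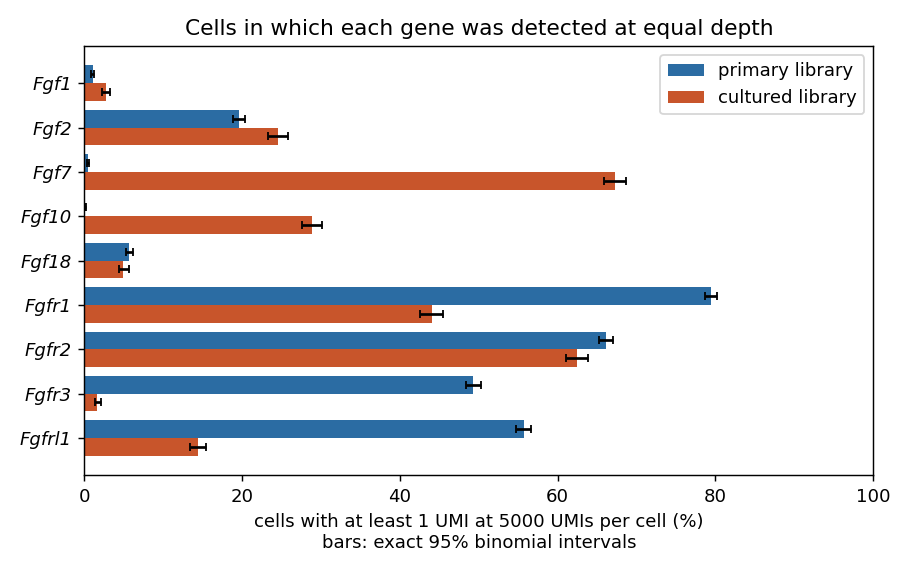
Cells in which each member had 1 or more UMIs after thinning to 5000 UMIs per cell, as a share of all cells thinned, in the primary (blue, 10959 cells) and cultured (orange, 4543 cells) library, with exact binomial intervals. The longest differences are those of Fgf7, from 0.411% to 67.3%, and of Fgfr3, from 49.3% to 1.63%.

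At 5000 UMIs, at least 1 of the 5 ligands was found in 25.3% of primary and 80.9% of cultured cells. At least 1 of Fgfr1, Fgfr2 and Fgfr3 was found in 95.9% and 77.9%. Cells with both a ligand and 1 of these receptors made up 24.2% of the primary and 63.8% of the cultured cells, and Fgf7 or Fgf10 was found in 0.465% and 75.0%. These 4 cultured shares were 81.9%, 78.3%, 64.6% and 76.3% without the Lars2-led clusters.

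The level in a cell type that should lack these ligands was read as a background. The cultured library held 9 haematopoietic-like cells (Pf4, Lyz2, C1qb), with a median of 35946 UMIs. In them Fgf7 was at 83.9 CPM (58.1 to 117) and Fgf10 at 27.1 CPM (13.5 to 48.6), below the library levels of 337 and 116 CPM. In 2 random draws of 5000 UMIs per cell, 3 and 2 of the 9 held Fgf7 (intervals up to 70.1% and 60.0%). The first interval held the library share of 67.3%, and the second lay below it. For Fgf10, 0 and 1 of the 9 held a UMI (up to 33.6% and 48.2%), and both intervals held the library share of 28.8%. With 9 cells the draws did not settle whether the shares differed from those of the library. Fgfr2 was at 148 CPM in these cells (113 to 191). How far free RNA entered the shares of the other cultured cells was not tested.

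The members also varied among cells of 1 library. Cells were grouped by Leiden clustering into 10 clusters in the primary library and 8 with at least 50 cells in the cultured library. Fgf2 and Fgf18 were among the genes used to cluster the primary cells, and Fgf2 and Fgf10 among those for the cultured cells, so levels by cluster are a description. Clusters of 1 library share its depth and preparation and are not replicates.

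Between the libraries, the cluster levels of 5 of the 9 members did not overlap. Fgf7 lay between 0 and 7.29 CPM in the primary and between 133 and 706 CPM in the cultured clusters, and Fgf10 between 0 and 1.92 CPM and between 57.8 and 490.4 CPM. The cultured clusters lay entirely above the primary ones for 10.5% of the 9115 genes. Fgfr1, Fgfr3 and Fgfrl1 were lower in every cultured cluster than in any primary cluster, as were 8.54% of genes, with Fgfr3 between 80.5 and 195 CPM in the primary and between 0.530 and 8.68 CPM in the cultured clusters. For Fgf1, Fgf2, Fgf18 and Fgfr2 the ranges overlapped. Without the Lars2-led clusters the cultured levels lay between 263 and 585 CPM for Fgf7, between 69.1 and 206 CPM for Fgf10 and between 1.28 and 6.57 CPM for Fgfr3. Nothing is read from these counts, since the choice of members used the contrast.

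In the primary library Fgf18 ranged 14.3-fold, the widest among the 7 members with enough counts in every cluster for a fold. Fgf7 and Fgf10 had clusters with 0 UMIs and were given no fold. It was at 38.0 CPM in the mixed cluster led by Col1a1 and Postn and at 34.2 CPM in cluster 2, led by Tll1 and Clu and with Prg4, which encodes the joint lubricant lubricin. These clusters were not separated by their counting intervals. It was lowest in cluster 4 (Aoc2, Acta2, Grem1), at 2.65 CPM, and in the dividing cells of cluster 9 (Cenpf, Top2a), at 3.20 CPM. Within the mixed cluster, Fgf18 reached 104.6 CPM, from 15 UMIs, in 33 cells led by the tendon gene Tnmd and 96.7 CPM, from 25 UMIs, in 51 cells led by Col1a1 and Postn.

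Fgfr3 ran nearly the other way. It was highest in cluster 7 (Slc35f1, Runx3, Wnt5b), at 195 CPM, followed by the dividing cells at 186 CPM and cluster 3 (Trf, Fam43a) at 181 CPM, and these neighbours had overlapping intervals. It was lowest in the mixed cluster, at 80.5 CPM, and next lowest in cluster 2, at 105 CPM. Within the mixed cluster Fgfr3 varied, as did depth. In the Tnmd-led cells, with a median of 4143 UMIs, it was 6.98 CPM from 1 UMI. In 2 deeper groups of 44 and 34 cells, with medians of 14575.5 and 16255.5 UMIs, it was 127.6 and 133.1 CPM. All other parts of that cluster lay below these 2. The 2 clusters with the most Fgf18 were therefore those with the least Fgfr3.

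The same direction was seen over all primary cells at 5000 UMIs, a comparison that pools clusters differing in both genes. Among 619 primary cells with Fgf18, 41.7% (37.8 to 45.7) also held Fgfr3, against 49.8% (48.8 to 50.7) of the 10340 cells without Fgf18. Within clusters, the share with Fgfr3 was higher in cells with Fgf18 in only 1 of 8 clusters with at least 10 such cells, cluster 1 (Cytl1, Wif1), at 55.2% against 49.9%. In the mixed cluster it was 7.41% against 26.6%, from 2 of 27 and 42 of 158 cells. The intervals of the shares overlapped in all 8 clusters. For Fgf2 and Fgfr1, also read by cluster, the share with Fgfr1 was higher in cells with Fgf2 in 5 of 10 clusters. The intervals overlapped in all 10. The pairs read by cluster in either library were a selection from all pairs of members, and the choice was not fixed beforehand.

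Fgf2 had another distribution in the primary cells. It was highest in cluster 5 (Plet1, Ptgs2), at 108 CPM, and stood at 77.3 CPM in cluster 4 and 76.7 CPM in cluster 6 (Gfra1, Adamtsl3), which were not separated by their intervals. It was lowest in cluster 7, at 21.8 CPM, followed by clusters 2 and 10 at 26.0 and 26.2 CPM, and these neighbours had overlapping intervals. Fgfr3 was highest in cluster 7 but next to lowest in cluster 2. Fgf2 was also at 37.2 CPM in the shallowest of 3 equal groups of primary cells and 66.9 CPM in the deepest, whereas Fgf18 was at 25.0 and 10.8 CPM, and the part of depth in their cluster levels was not tested.

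The other receptors varied about 2-fold over the primary clusters. Fgfr1 ran from 248 CPM in cluster 10 (Jazf1, Zbtb16) to 494 CPM in cluster 5. Fgfr2 ran from 179 CPM in cluster 4 to 361 CPM in cluster 2, and Fgfrl1 from 103.5 CPM in the mixed cluster to 227 CPM in cluster 4. Cluster 2 thus had the highest Fgfr2 and, the mixed cluster aside, the lowest Fgfr3 and Fgfrl1.

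**Figure D3:**
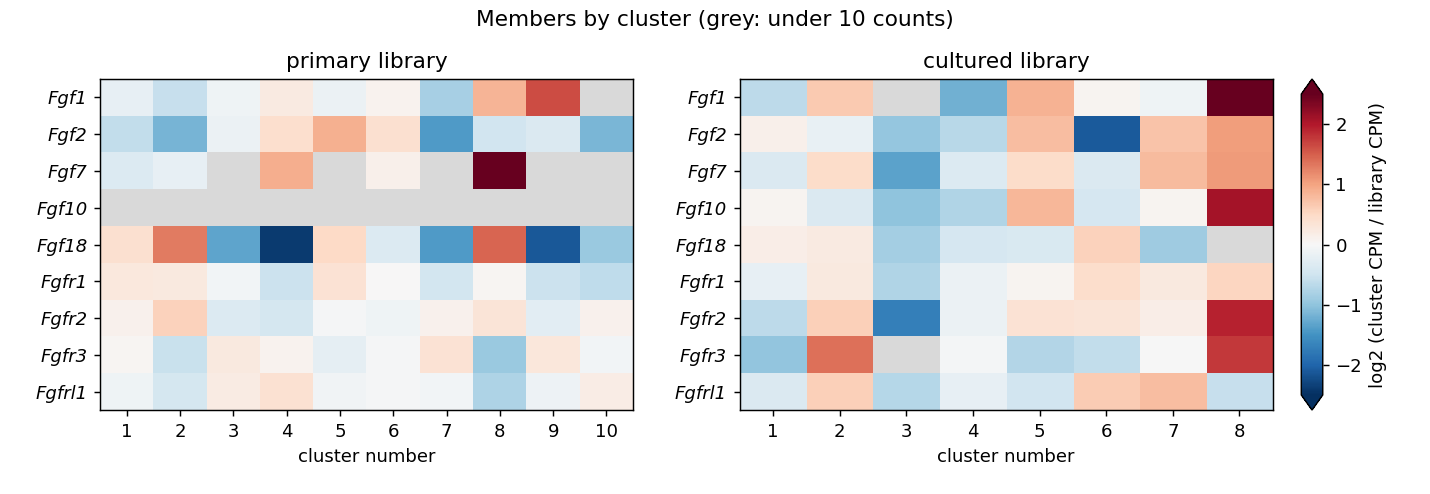
Level of each member in each cluster of at least 50 cells relative to its own library, as the log2 of cluster CPM over library CPM, with red above and blue below the library and grey where a cluster had under 10 counts. In the primary library (left) Fgf18 is red in clusters 2 and 8, where Fgfr3 is blue, and in the cultured library (right) Fgf10 is red in clusters 5 and 8.

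In the cultured library, Fgf10 was at 490.4 CPM in cluster 8, 54 cells led by Lars2 with a median mitochondrial share of 7.23%. Leaving out the Lars2-led clusters, it was highest in cluster 5 (Hmcn1, Col24a1), at 206 CPM, and then at 121.3 and 120.7 CPM in clusters 1 (Saa3, Klk8) and 7 (Ptn, Thy1), which were not separated by their intervals. It was lowest in the dividing cells of cluster 4 (Cenpf, Mki67), at 69.1 CPM. The range over these 6 clusters was 2.99-fold, against 8.49-fold over all 8. The latter was 3.30-fold when the members were left out of the genes used to cluster and 17.1-fold at a resolution of 1.0.

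Fgf7 had a different order over the same clusters. It was at 706 CPM in the Lars2-led cluster 8 and 133 CPM in cluster 3, a 5.33-fold range that was 16.9-fold with 30 principal components. Fam227b, which overlaps Fgf7 on the opposite strand, was among the leading genes of cluster 8, and its part in that level was not tested. Leaving out the Lars2-led clusters, Fgf7 was highest in cluster 7, at 585 CPM, and at 464 and 461 CPM in clusters 5 and 2 (Mmp13, Comp), whose intervals overlapped. Clusters 4, 6 (Nr5a2, Barx1, Sfrp2) and 1 had 265, 263 and 263 CPM, with no separation among them. Fgf2 was at 120.3 CPM in cluster 5 and at 16.4 CPM in cluster 6, a 7.32-fold range without the Lars2-led clusters and 8.83-fold with them, where cluster 8 was at 145 CPM. Fgf18 was highest in cluster 6, at 16.1 CPM, with or without them.

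Fgfr2 ran from 151 CPM in cluster 1 to 354 CPM in cluster 2 without the Lars2-led clusters, and was at 899 CPM in cluster 8. Of the 841 Fgfr3 UMIs, 369, or 43.9%, lay in cluster 2 (Mmp13, Comp), which made up 19.3% of the cultured cells. That cluster was left unnamed. Of the listed chondrocyte markers only Comp was raised at least 4-fold in it, and 0 reached 1000 CPM. Its leading genes also included Gdf10, Mme and Pparg. The level there was 6.57 CPM (5.92 to 7.28). It was 8.68 CPM (4.75 to 14.6) in the Lars2-led cluster 8, from 14 UMIs, and the intervals of the 2 overlapped. The other clusters lay between 0.530 CPM in cluster 3 and 2.53 CPM in cluster 7, and all 8 were below the lowest primary cluster. Levels also differed between the shallowest and the deepest of 3 equal groups of cultured cells. Fgf10 was at 84.4 and 123 CPM, Fgf7 at 350 and 314 CPM, Fgfr2 at 302 and 206 CPM and Fgfr3 at 4.31 and 1.86 CPM. The part of depth in the cultured cluster levels was not tested.

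Cultured cells that held Fgf2 more often held Fgf10 at 5000 UMIs, a pair selected from all pairs of members. Of 1114 cells with Fgf2, 42.2% (39.3 to 45.2) also held Fgf10, against 24.5% (23.1 to 26.0) of 3429 cells without Fgf2. The share was higher with Fgf2 in all 8 clusters, for example 47.4% against 29.0% in cluster 1 and 31.1% against 16.2% in cluster 2. The intervals were apart in clusters 1, 2 and 4 and overlapped in the other 5. The shares were 43.7% and 23.8% without the Lars2-led clusters, and the first was the higher in 6 of 6 clusters. Cells with both made up 10.3% of the library, 1.46 times the product of the 2 shares.

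For Fgf7 and Fgf10 the link was weaker. Cells with both made up 21.1% (19.9 to 22.3), 1.09 times the product of their shares. Fgf10 was found in 31.4% of cells with Fgf7 and 23.6% of cells without, and the first of these shares was the higher in all 8 clusters, with intervals apart in 1 and overlapping in 7. With those clusters left out the shares were 30.6% and 24.6%, and cells with both made up 20.9%. Cells with Fgf7 and Fgfr2 made up 43.9% (45.2% without the Lars2-led clusters), 1.04 times the product, and in no cluster were the intervals for Fgfr2 in cells with and without Fgf7 apart.

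**Figure D4:**
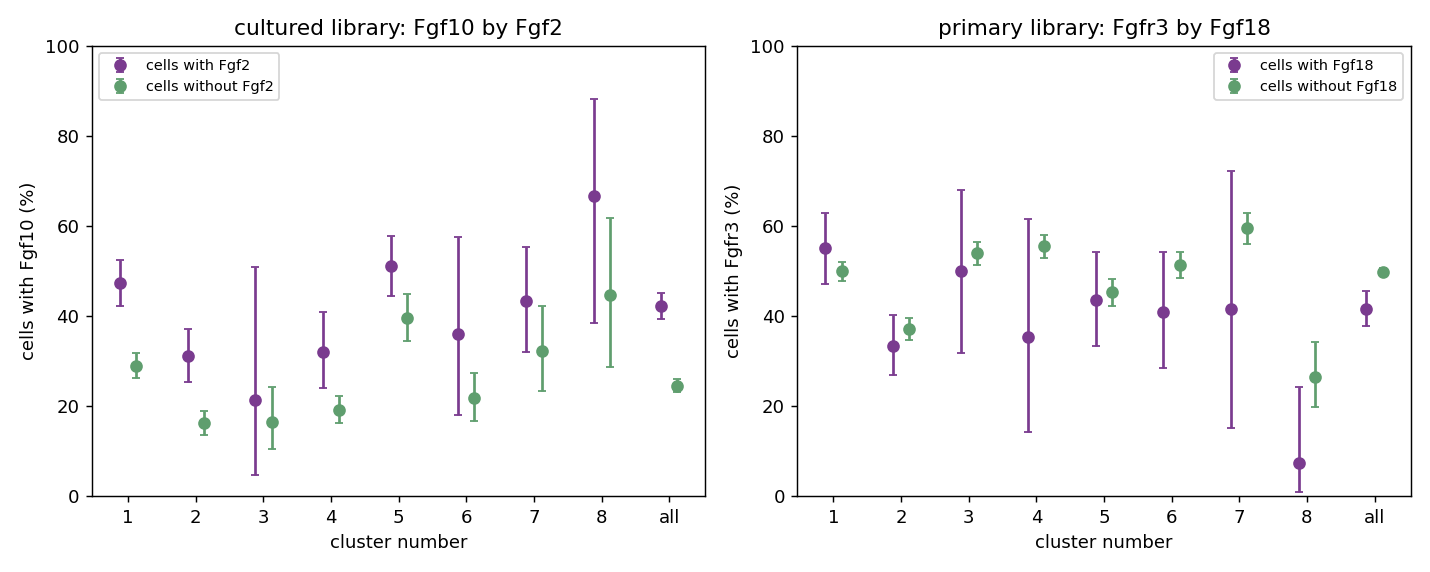
Share of cells with a second gene among cells with (purple) and without (green) a first gene at 5000 UMIs per cell, by cluster and over all cells, with exact binomial intervals. In the cultured library (left) Fgf10 was more frequent in cells with Fgf2 in all 8 clusters, and in the primary library (right) Fgfr3 was less frequent in cells with Fgf18 in 7 of 8.

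Among 3476 genes with at least 50 CPM in the cultured library, those with levels most like Fgf10 over the 8 cultured clusters were Ccser2 (Pearson r 0.98), Rb1cc1, Cemip, Ahr and Vgll3 (r 0.95). Only Ccser2 and Rb1cc1 remained among the 5 most alike without the Lars2-led clusters, and none did under 30 principal components or a resolution of 1.0. For Fgfr3 over the 10 primary clusters, Tubb2a (r 0.93), Trpv4, Snorc, Pde4dip and Eef1b2 (r 0.89) ranked first of 3030 genes with that level in the primary library. Trpv4 is a calcium channel of chondrocytes and Snorc a proteoglycan of cartilage. At least 3 of these 5 were also found under the other clusterings, and all points share 1 library and its depth.

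The rest of the pathway was read from a list of 76 other FGF genes, of which 75 are in the files and 46 reached 10 CPM. Of these 46, 5 were higher after culture by 4-fold or more, 2 were lower, and 39 were neither. Over all genes 10.6% were higher and 5.73% lower by this measure, so the counts were near those of the background, as was the median log2 ratio of 0.35 beside 0.37. The 13 other secreted ligands and 4 intracellular FGF homologous factors were all below 10 CPM in both libraries, and the highest of the ligands were Fgf21, at 2.52 CPM before and 0.133 CPM after culture, and Fgf16, at 0.0875 and 1.43 CPM.

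The largest differences were among genes that build and trim heparan sulfate, the coreceptor of FGFs. Hs6st2, a 6-O-sulfotransferase that adds sulfate to the chain, was at 2.15 CPM before and 542 CPM after culture, a log2 ratio of 7.98. Sulf1, an endosulfatase that removes such sulfate groups, was at 6.58 and 459 CPM, a log2 ratio of 6.13. Both were higher, though their activities are opposed. The other 9 enzymes were within 4-fold, with Ext1, which lengthens the chain, at 234 and 461 CPM and Sulf2 at 139 and 89.8 CPM.

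Of the proteins that carry the chain, 10 of 12 had at least 10 CPM. Sdc2 was higher, at 100.2 and 644 CPM, a log2 ratio of 2.68, and Gpc6 was lower, at 2077 and 451 CPM, a log2 ratio of -2.20. Gpc3 was just inside the limit, at 273 and 70.3 CPM, with a log2 ratio of -1.96, and Sdc4 was at 1287 and 1085 CPM. Fgfr4, the remaining kinase receptor, was at 11.9 CPM before and 0.457 CPM after culture, a log2 ratio of -4.70, and the Klotho coreceptors Kl and Klb had 10 and 1 UMIs in the primary and 7 and 10 in the cultured library.

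Of 13 signal transducers, Frs2, the docking protein that FGF receptors phosphorylate, was higher, at 49.6 and 199.6 CPM, and the other 12 were within 4-fold. Its log2 ratio was 2.01. Of 7 feedback inhibitors, Spry1 was higher, at 4.11 and 17.6 CPM, a log2 ratio of 2.10, and Spry2 was lower by less than 4-fold, at 149 and 40.4 CPM. Spry4, Dusp5, Spred1 and Spred2 were also lower by less than 4-fold, at log2 ratios of -1.55, -1.23, -0.55 and -0.14. The median log2 ratio of the 7 was -0.55. Frs2 and Spry1 were within 4-fold with TMM scaling and with each cell weighing the same, while Gpc3 and Spry2 passed it with TMM scaling, at log2 ratios of -2.16 and -2.08. Dusp6, a phosphatase induced by FGF signalling, was at 10.5 and 19.0 CPM. The transcription factors Etv5 and Etv1, which FGF signalling often induces, were at 39.8 and 17.9 CPM and at 11.2 and 14.5 CPM.

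**Figure D5:**
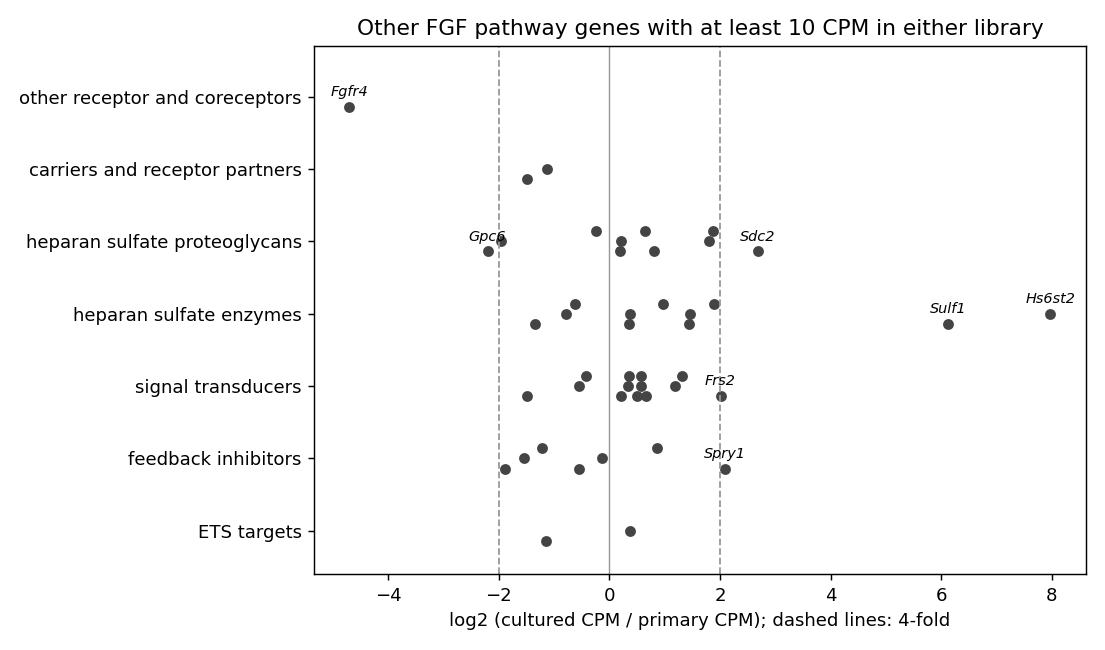
Log2 of cultured over primary CPM for the 46 other FGF pathway genes that reached 10 CPM, 1 point per gene, in rows by role. Dashed lines mark 4-fold, and the 5 genes beyond the right line and 2 beyond the left are named, with Hs6st2 at 7.98 and Fgfr4 at -4.70.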

How the data were processed

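Per the file headers and the submitters' processing notes, reads were processed by the authors with Cell Ranger 7.0.0. The files as deposited hold unnormalised UMI counts, 1 for each gene and barcode. The study's methods name GRCm38, the notes also list other builds, and the annotation release and the treatment of intronic reads were not given in the sources used here. Groups were taken from the treatment labels.

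Barcodes entered with 500 or more genes, 1000 or more UMIs and no more than 10% of UMIs from mitochondrial genes. The Scrublet step of scanpy 1.11.5 called 0 primary and 1 cultured doublet by its automatic threshold and had not worked, so doublets were kept, and leaving out the highest scores (1118 primary and 461 cultured cells, 0.8% per 1000 barcodes) was an alternative. The depth was 137148874 primary and 330129909 cultured UMIs. Counts summed over kept cells were scaled to CPM (a library total of 1000000). Log2 ratios raised counts under 3 to 3, which is 0.0219 primary and 0.00909 cultured CPM. Intervals at 95% were exact Poisson for counts, exact conditional for ratios and exact binomial (Clopper-Pearson) for shares, and cover counting error only. For shares, cells were thinned without replacement to 5000 UMIs. Each library was clustered alone (2000 variable genes, 10 principal components, 20 neighbours, Leiden resolution 0.5), and clusters were named from marker lists. The leading genes of a cluster were those with the largest fold over all other cells. TMM factors came from edgeR 4.0.16. No test was run, since each group was 1 library. The calculations were tested on simulated data.

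The members, the gene lists and the settings were chosen with earlier results of these data known. All 9 members are reported, other FGF genes are named where at least 4-fold apart or as examples of their role chosen after their values were seen, and the 5 genes most like Fgf10 and Fgfr3 were ranked by Pearson's r. Gene coordinates are from GENCODE M21 and promoter sequences from RefSeq (GRCm38.p6).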

Additional observations from a re-analysis of the deposited data

How the results depend on the processing

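Over all 282 comparisons with another setting, 191 stayed within the limits set for a move, 91 moved and 0 changed sign, where each library's share of cells was compared with itself and not with the other library. The order of the 2 libraries' shares turned for Fgf18 under 2 of 5 settings (7.30% and 8.68% at 10000 UMIs, 9.94% and 28.6% without thinning) and for Fgfr2 under 2 (37.3% and 37.4% at 2000 UMIs, 85.0% and 85.2% without thinning), and under none of the 5 for the other 7 members, so the members with a higher cultured share numbered 4, 5 or 6. Fold ranges over clusters that moved by over 1.5 times were, in the cultured library, Fgf10 (8.49) at 3.30 with the members left out of the clustering genes and 17.1 at resolution 1.0, Fgfr2 (12.5) at 5.19 and 19.3 under the same settings, and Fgf7 (5.33) at 16.9, Fgf18 (4.33) at 9.31 and Fgf2 (8.83) at 5.83 with 30 principal components, and in the primary library Fgf18 (14.3) at 26.7 at resolution 1.0. The members at least 4-fold higher numbered 2 under all 10 alternatives and those lower 2 to 3, the latter with a 2-fold limit. Log2 ratios ran from 9.67 to 10.34 for Fgf10, 8.45 to 8.88 for Fgf7 and -6.10 to -5.70 for Fgfr3. The other FGF genes at least 4-fold higher (5) numbered 3 with each cell weighing the same, 3 with TMM scaling, 9 from 1 CPM and 12 at 2-fold, and those lower (2) numbered 4 with TMM scaling, 5 from 1 CPM and 11 at 2-fold. All genes apart (1488) numbered 2575 from 1 CPM and 3625 at 2-fold. Cultured cells with both Fgf7 and Fgf10 (21.1%) made up 8.30% at 2000 UMIs, 35.7% at 10000 UMIs and 58.3% without thinning. Of the 5 genes most like Fgf10, 0 were shared with 30 principal components, 0 at resolution 1.0, 0 with the members left out of the clustering genes and 2 without the Lars2-led clusters. Of those most like Fgfr3, 3 were shared with 30 principal components and 3 at resolution 1.0. The cause of these moves was not tested beyond what the settings' own construction gives. Leaving out shared barcodes, Lars2-led clusters or members from the clustering genes, and counting over chondrocyte-like primary cells alone, were chosen after seeing the data. No paired analysis was possible because each group was 1 library. Depth limits Fgf10 in the primary library, at 17 UMIs.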
